A study of Mus musculus with 24 samples.

Results

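Regions of epidermal chromatin that were open at W6 and in no other in vivo list of a SOX9 induction time course are described here. They were chosen by the presence of a peak at W6 and the absence of any peak overlapping by at least 1 bp at D0, W1, W2 and W12, after the peaks of the 5 in vivo lists had been merged. There were 7954 such regions (W6-only regions) among 98240 in vivo regions, or 8.1% of all regions and 10.8% (95% Wilson interval 10.6 to 11) of the 73578 regions that held a W6 peak. ATAC-seq reads open chromatin through the cuts of the Tn5 transposase, and it was run on 24 samples forming 12 groups of 2 replicates. Epidermal stem cells (EpdSCs) for the in vivo groups were sorted from the back skin of male CD1 mice of the genotype K14rtTA; TRE-myc-Sox9 on high CD49f and Ly6A, without CD34, CD31, CD45, CD117 or CD140a. The cells came from mice at P21 before doxycycline (D0), and at P28 (W1), P35 (W2) and P63 (W6) after doxycycline (DOX) had been started. The W12 cells came from skin of newborn mice grafted onto Nude hosts, left for 21 days to heal and then given DOX, so that for W12 the week cannot be told apart from the tissue source. No uninduced mice aged P63 were among the groups, so weeks of SOX9 and age cannot be told apart either. The transgene is driven wherever the Krt14 promoter is active, and each replicate pooled 2 to 4 male mice. The 7 culture groups were keratinocytes from male CD1 back skin, all carrying K14rtTA. They were TRE-myc-Sox9 cells without DOX (noDOX) and, with DOX at 1 µg per ml, TRE-myc-Sox9 (WT-SOX9), TRE-myc-Sox9noHMG (ΔHMG-SOX9, without the DNA-binding domain), TRE-myc-Sox9noTA (ΔTA-SOX9, without the transactivation domain), TRE-FLAG-AFOS (AFOS, a dominant-negative FOS), TRE-myc-Sox9 with TRE-FLAG-AFOS (SOX9+AFOS), and TRE-myc-Sox9 with TRE-ARID1a (SOX9+ARID1a, with a subunit of the SWI/SNF remodeller). Replicates had been merged before peak calling, so each group gave 1 list and no value below has an error between animals or cultures.

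SOX9 is the HMG-box transcription factor that specifies hair follicle stem cells, and it is silent in the epidermis between follicles. Sustained SOX9 is also a feature of basal cell carcinoma. Open regions away from promoters are mostly enhancers, at which combinations of transcription factors displace nucleosomes. AP1 (FOS and JUN dimers) is a frequent occupant of keratinocyte enhancers, RUNX1 is a factor of activated follicle stem cells, GATA3 belongs to the epidermal programme, and C/EBP factors act in epidermal differentiation and inflammation.

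The sequences below are the central 200 bp (plus strand, GRCm38, from the RefSeq genome sequence) of the 3 W6-only regions with the highest W6 scores, of the highest-scoring with an AP1 match and of the highest-scoring with an NF-κB match. The third of them is also the highest-scoring with a RUNX match. Capitals mark every match, on either strand, to the 17 consensus motifs searched. These were TGACTCA for AP1, TGACGTCA for CRE, TGTGGT for RUNX, ACAATGG or ACAATAG for SOX, AGATAA for GATA factors, ACATTCC for TEAD, CCGGAA for ETS, GGGTGTGG for KLF, CATGNNNNNNCATG for p63, TTGCNNAA for C/EBP, TTCCNGGAA for STAT factors, ATCAAAG for LEF/TCF, GACCACCCA for GLI, CAGGTG for the ZEB/SNAI E-box, AGGTGTGA for TBX, and the CTCF and NF-κB consensus sequences.
Msh4 intron, chr3:153897518-153897717: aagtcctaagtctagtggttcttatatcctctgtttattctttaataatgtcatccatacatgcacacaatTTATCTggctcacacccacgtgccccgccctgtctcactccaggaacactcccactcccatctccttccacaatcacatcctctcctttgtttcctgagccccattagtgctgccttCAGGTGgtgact
Cdh20 intergenic, chr1:103800712-103800911: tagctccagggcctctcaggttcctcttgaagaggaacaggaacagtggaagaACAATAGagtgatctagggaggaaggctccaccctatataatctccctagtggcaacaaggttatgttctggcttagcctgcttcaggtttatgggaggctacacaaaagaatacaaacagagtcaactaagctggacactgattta
Mdfic intergenic, chr6:16233885-16234084: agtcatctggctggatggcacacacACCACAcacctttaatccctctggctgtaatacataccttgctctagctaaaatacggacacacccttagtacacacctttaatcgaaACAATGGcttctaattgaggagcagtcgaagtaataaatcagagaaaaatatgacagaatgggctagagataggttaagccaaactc
Ly6l intergenic, chr15:75387213-75387412: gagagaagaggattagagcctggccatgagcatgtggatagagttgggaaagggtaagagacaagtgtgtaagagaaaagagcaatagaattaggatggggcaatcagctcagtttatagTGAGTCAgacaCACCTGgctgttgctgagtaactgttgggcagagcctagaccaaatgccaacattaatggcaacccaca
Gm5155 intron, chr7:17903275-17903474: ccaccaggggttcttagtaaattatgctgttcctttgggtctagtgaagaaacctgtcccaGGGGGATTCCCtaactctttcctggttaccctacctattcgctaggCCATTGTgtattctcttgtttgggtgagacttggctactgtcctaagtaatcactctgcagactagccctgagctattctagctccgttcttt
The Msh4 sequence held a GATA and an E-box match, the Cdh20 sequence a SOX match, the Mdfic sequence a RUNX and a SOX match, the Ly6l sequence an AP1 and an E-box match, and the Gm5155 sequence an NF-κB and a SOX match. The capital run of 11 bases in the Gm5155 sequence joins 2 overlapping NF-κB matches, which lie on opposite strands.

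Another 5 sequences, chosen after their values were seen, show W6-only regions near genes of interest and the highest-scoring W6-only region that had a SOX match and was opened by WT-SOX9 in culture.
Krt6a intergenic, chr15:101688315-101688514: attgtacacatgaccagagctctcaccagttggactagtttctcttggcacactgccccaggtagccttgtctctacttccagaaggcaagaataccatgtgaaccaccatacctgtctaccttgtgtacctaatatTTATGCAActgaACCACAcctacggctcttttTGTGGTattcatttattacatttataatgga
Tgfbr2 intron, chr9:116138893-116139092: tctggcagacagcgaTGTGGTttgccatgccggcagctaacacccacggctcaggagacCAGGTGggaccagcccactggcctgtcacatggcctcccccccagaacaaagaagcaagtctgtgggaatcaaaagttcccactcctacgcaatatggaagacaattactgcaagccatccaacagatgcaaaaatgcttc
Vim intron, chr2:13576104-13576303: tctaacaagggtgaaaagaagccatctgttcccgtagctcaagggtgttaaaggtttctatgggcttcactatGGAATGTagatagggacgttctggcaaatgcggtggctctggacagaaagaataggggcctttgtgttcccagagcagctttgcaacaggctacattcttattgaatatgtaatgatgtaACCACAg
Tcf7l2 intron, chr19:55821601-55821800: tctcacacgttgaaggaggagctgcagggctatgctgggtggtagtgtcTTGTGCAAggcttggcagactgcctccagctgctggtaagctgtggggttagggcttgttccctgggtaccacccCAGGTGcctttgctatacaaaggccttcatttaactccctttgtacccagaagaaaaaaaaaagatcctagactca
4921530L21Rik intergenic, chr14:95256186-95256385: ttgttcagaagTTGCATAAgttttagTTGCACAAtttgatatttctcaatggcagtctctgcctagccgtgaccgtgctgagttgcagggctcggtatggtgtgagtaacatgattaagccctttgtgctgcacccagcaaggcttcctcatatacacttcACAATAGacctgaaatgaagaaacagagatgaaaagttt
The Krt6a sequence held a C/EBP match and 2 RUNX matches, the Tgfbr2 sequence a RUNX and an E-box match, the Vim sequence a TEAD and a RUNX match, and the Tcf7l2 sequence a C/EBP and an E-box match. The 4921530L21Rik sequence held 2 C/EBP matches and a SOX match.

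W6-only regions were weak peaks. The peak score is the authors' normalized value, of which 3 is the lowest kept in every list, the fold is the enrichment over local background, and −log10 q is the authors' measure of the peak call. These 3 measures are the values from which presence was decided, so they are given as a description. The W6 score of the members had a median of 3.92, with the middle 50% between 3.52 and 4.96 and a highest value of 20.1. By comparison the median W6 score was 5.33 at peaks shared by W6 and W12 only, 13.8 at static peaks (in all 5 lists) and 8.44 at all 75956 W6 peaks. The median fold was 4.91 against 5.58 and 8.04 at the same W6-and-W12-only and static peaks, and the median −log10 q was 8 against 11.5 and 32.9. Members were also narrow, with a median width of 287 bp. Only 61 (0.767%) had a score of at least 10, and 1825 (22.9%) a score of at least 5.

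Many members shared exactly the same values. The 10 commonest combinations of score, fold and −log10 q took in 3475 members (43.7%). The commonest, a score of 3.26 with a fold of 4.64 and a −log10 q of 6.38, was found at 852 members and at 1919 W6 peaks in all. The next, a score of 3.58 with a fold of 4.91, was found at 651 members. Members that share such values cannot be ranked by them. The number of reads behind each value is not in the files, and read depth is unknown.

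The share of W6 peaks that were W6-only fell along the W6 score. It was 37.3% in the lowest of 10 score bins of W6 peaks (scores of 3 to 3.61), 28.9% in the next, 19.1% in the third, 2.2% in the sixth and 0 of 7596 in the highest bin, where a count of 0 allows a share of up to 0.0395%. The share of W6-and-W12-only peaks moved less over the lower bins, from 14.8% to 16%, 15.6% and 15%, before it too fell. Members near the threshold were common, with 1940 (24.4%) below a score of 3.5. Just outside the rule lay 10507 regions present at W6 and in exactly 1 other list. The other list was W12 for 6773 of them (64.5%), W2 for 2818 (26.8%), W1 for 687 (6.54%) and D0 for 229 (2.18%). Their score in that other list had a median of 4.87 and was below 3.5 in 1672 (15.9%).

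**Figure D1:**
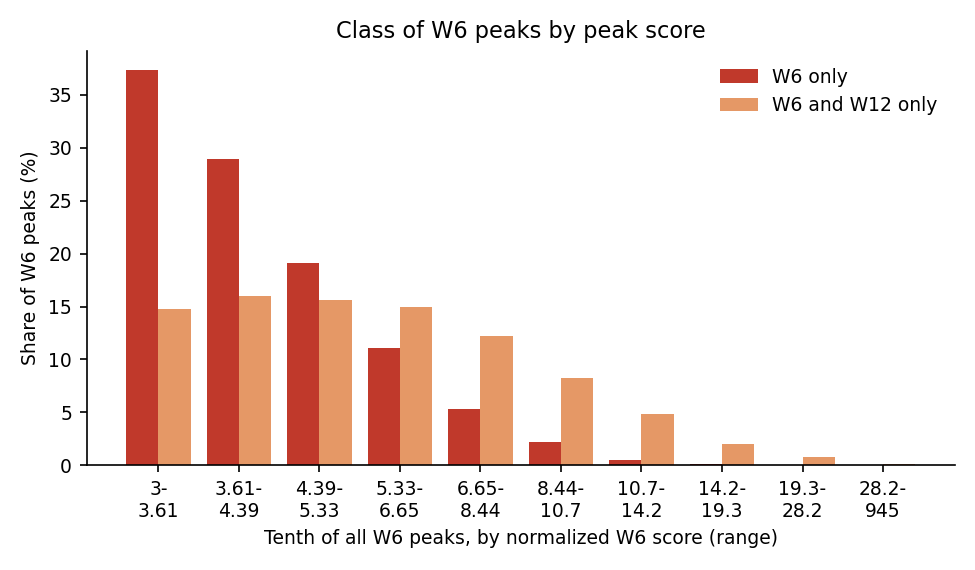
Share (%) of W6 peaks that were W6-only (red) or shared with W12 only (orange), in 10 bins of all W6 peaks in order of normalized W6 score. The red bars fall from 37.3% in the lowest bin to 0 in the highest, while the orange bars stay between 14.8% and 16% over the 4 lowest bins.

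The lists shared a lowest kept score of 3 but differed in the lowest −log10 q kept. With read depth unknown, the −log10 q of a W6 peak does not show whether such a peak would be kept in another list. Of the members, 7303 (91.8%) had a −log10 q below the lowest kept at D0 (14.5), 5650 (71%) one below the lowest kept at W12 (10.1) and 5109 (64.2%) one below the lowest kept at W1 (9.37). The lowest kept at W2 (4.21) was under the lowest kept at W6 (5.74), so no W6 peak could lie below it. Present in a single list were 7954 W6 regions (10.8% of the regions of that list), 4600 W1 regions (8.02%), 5272 W12 regions (7.57%), 2531 W2 regions (4.16%) and 1424 D0 regions (2.56%). When the 5 lists were cut to an equal 57334 peaks by score, 3876 W6-only regions were left, and with a common −log10 q minimum there were 2063. With a score of at least 5 there were 5133 when it was asked in every list and 1825 when it was asked at W6 alone. The number thus moved with each of these thresholds.

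A minority of members lay close to a peak of another in vivo list, a share that was not computed for other classes. For 997 members (12.5%) a peak of another in vivo list lay within 500 bp, and the median gap to the nearest such peak was 4630 bp. A W12 peak lay that near for 771 members (9.69%), a W2 peak for 665 (8.36%), a W1 peak for 495 (6.22%) and a D0 peak for 481 (6.05%), an order that is also that of the list lengths (71503, 64095, 57767 and 57334 peaks). Within 10 kb, 17.4% (16.6 to 18.2) of members had another member and 16% (15.2 to 16.8) had a region that was gained by W2 and kept. Among W12-only regions 12.3% (11.4 to 13.2) had another of their own class and 11.4% (10.6 to 12.3) had one of the latter kind, both lower than in members. W6-and-W12-only regions were close to members, at 16.6% (15.8 to 17.5) and 15.4% (14.6 to 16.3). The classes differ in size, which bears on the chance of meeting another of the same class, and these distances were not tested. Members were spread over all chromosomes, from 6.77% (6.03 to 7.59) of in vivo regions on chromosome 17 to 9% (8.25 to 9.82) on chromosome 13, leaving out the 31 regions on Y and 42 on unplaced sequences.

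Nearly all members lay away from gene starts. The centre was in an intron for 48.7% and between genes for 45%, against 49.1% and 39.7% of all in vivo regions. The median distance to the nearest transcription start site (TSS) of a protein-coding gene in GENCODE M21 was 33036 bp, against 22320 bp for all. Within 1 kb of a TSS lay 15.2% of all in vivo regions and 497 of the members (6.25%, 5.74 to 6.8). This was more than among W6-and-W12-only regions (3.2%, log2 odds ratio 1.01, 95% interval 0.77 to 1.24) and W12-only regions (3.17%, 1.03, 0.77 to 1.28), slightly more than among other dynamic regions (5.36%, 0.23, 0.09 to 0.38), and far less than among static regions (31.3%, -2.77, -2.91 to -2.64). Odds ratios here compare lists of regions, which are not replicates, and their intervals cover counting error only. Against W12-only regions the difference was 0.10 (-0.05 to 0.24) within 5 kb of a TSS and 0.36 (-0.02 to 0.73) with the common q minimum. The TSS-proximal members differed from the others in what lay beside them, as 30% (26.1 to 34.1) of these 497 had a peak of another in vivo list within 500 bp, against 11.4% (10.7 to 12.1) of the 7457 others.

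Members were slightly richer in repeat-masked sequence. On average 13.9% of the central 200 bp was soft-masked in the reference, against 11.4% in W6-and-W12-only and 11.2% in W12-only regions, and 7.34%, 4.84% and 5.08% of regions were mostly masked. The shares by W6 score were in the same order, with 6.44% of members scoring 3 to 3.5 and 7.03% of those scoring 5 to 10 mostly masked, against 4.21% and 4.91% of W6-and-W12-only regions in the same ranges. At scores of 10 or more 5 of 61 members (8.2%, 3.55 to 17.8) were mostly masked, against 3.94% (2.77 to 5.56), and these intervals overlapped. The median GC content of members was 49%, against 48% and 48.5% in those classes.

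The motif content separated W6-only regions from the other late regions. AP1 matches were less frequent in members than in the other late regions and about as frequent as in all regions. SOX and C/EBP matches were more frequent in members than in W12-only regions, and RUNX matches less frequent than in both other late classes. Motif content was not used to choose the regions, and 51 comparisons were made (17 motifs against 3 classes), with 95% intervals widened to hold over all 51. Of 7949 members with a full window, 1501 (18.9%, 18 to 19.8) held an AP1 match, close to the 19.6% of all in vivo regions. The share was 39.9% (38.8 to 41.1) in W6-and-W12-only and 41.6% (40.2 to 42.9) in W12-only regions. The log2 odds ratio was -1.51 (-1.69 to -1.33) against the former and -1.61 (-1.80 to -1.42) against the latter. It lay between -1.81 and -1.35 and between -1.67 and -1.42 under all 8 alternatives tried for each. Against all other dynamic regions (22.3%) it was -0.30 (-0.45 to -0.16), but it turned to 0.24 (0.05 to 0.43) with lists of equal size.

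SOX matches were found in 731 members (9.2%, 8.58 to 9.85), against 5.33% of all in vivo regions. They were more frequent than in W12-only regions (5.09%, log2 odds ratio 0.92, 0.57 to 1.27) and than in other dynamic regions (6.28%, 0.60, 0.39 to 0.80). Against W6-and-W12-only regions (7.81%) the interval held 0 (0.26, -0.03 to 0.54). It did not hold 0 when the ratio was pooled over 10 bins of the W6 score, which sets members beside W6-and-W12-only regions of like strength (0.56, 0.24 to 0.87). The share rose with the W6 score of the members, from 7.61% (6.69 to 8.66) in the lowest of 3 score bins to 8.91% in the middle and 11.3% (10.1 to 12.6) in the highest. With the full region scanned in place of 200 bp the ratio was 0.59 against W12-only regions, but -0.30 against W6-and-W12-only and -0.04 against other dynamic regions, whose median widths of 420 and 437 bp exceeded the 287 bp of members.

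C/EBP matches were held by 1036 members (13%, 12.3 to 13.8) against 10% of all in vivo regions. The share exceeded that of W12-only regions (8.51%, 0.69, 0.40 to 0.97), of W6-and-W12-only regions (11%, 0.27, 0.03 to 0.51) and of other dynamic regions (10.7%, 0.32, 0.15 to 0.49). It also rose with the W6 score of the members, from 11.5% (10.4 to 12.7) to 12.7% and 15.2% (13.8 to 16.7) over the same bins. With the full region scanned, the differences from W6-and-W12-only and other dynamic regions turned to -0.33 and -0.36, and the former also had an interval with 0 under 3 of 8 alternatives.

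RUNX matches were in 1453 members (18.3%, 17.4 to 19.1), above the 14.9% of all in vivo regions but below the 23.1% of W6-and-W12-only regions (-0.43, -0.62 to -0.23) and the 21.4% of W12-only regions (-0.28, -0.49 to -0.07). The second difference had an interval with 0 under 3 of 8 alternatives, lists of equal size among them (-0.24, -0.51 to 0.03). GATA matches were in 595 members (7.49%), fewer than in other dynamic regions (12.4%, -0.81, -1.02 to -0.60), while against W6-and-W12-only regions (7.31%) the ratio was 0.04 (-0.26 to 0.34). KLF matches were in 403 members (5.07%), more than in W12-only (3.38%, 0.61, 0.17 to 1.05) and W6-and-W12-only regions (3.85%, 0.41, 0.03 to 0.80). The second difference lost the call under 6 of 8 alternatives, and under a further one, the full region, it turned to -0.02 (-0.34 to 0.29). The first had an interval with 0 (0.59, -0.04 to 1.21) with a score of at least 5 at W6. E-box matches were in 19.2% of members against 16.3% and 16.2% of these classes (0.29, 0.08 to 0.49, and 0.29, 0.07 to 0.51), but 18.6% of all in vivo regions held one, and with the full region scanned the first difference turned to -0.30 and the second had an interval with 0 (0.15, -0.05 to 0.34). CTCF matches were in 2.79% of members against 1.79% of W6-and-W12-only regions (0.66, 0.12 to 1.20) and 2.4% of all, a difference that turned to -0.71 (-1.87 to 0.44) among members scoring at least 5. They were concentrated in weak members, at 3.81% (3.16 to 4.58) of the lowest score bin and 1.31% (0.932 to 1.85) of the highest. TEAD matches were fewer than in other dynamic regions (3.57% against 4.72%, -0.42, -0.72 to -0.11), but the interval held 0 under the common q minimum (-0.19, -0.73 to 0.36) and with a score of at least 5 at W6 (-0.42, -1.03 to 0.19). For CRE, NF-κB, ETS, p63, STAT, LEF/TCF, GLI and TBX every interval held 0, the shares in members being 0.377%, 3.81%, 2.97%, 1.21%, 1.04%, 2.99%, 0.113% and 1.64%, against 0.598%, 3.49%, 5.04%, 1.13%, 0.976%, 2.89%, 0.0978% and 1.3% of all in vivo regions in the same order.

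Combinations followed the single motifs. AP1 and RUNX matches occurred together in 3.07% (2.71 to 3.47) of members against 8.31% (7.68 to 9) of W6-and-W12-only and 8.02% (7.31 to 8.78) of W12-only regions. RUNX and SOX occurred together in 1.8% (1.53 to 2.12) of members against 1.89% and 1.06%. None of AP1, RUNX, SOX and GATA was matched in 4409 members (55.5%, 54.4 to 56.6), against 38.8% and 39% of the other late classes and 53.2% of other dynamic regions. Among all in vivo regions the shares were 3.19% for AP1 with RUNX, 0.917% for RUNX with SOX and 58.6% for none of these motifs.

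**Figure D2:**
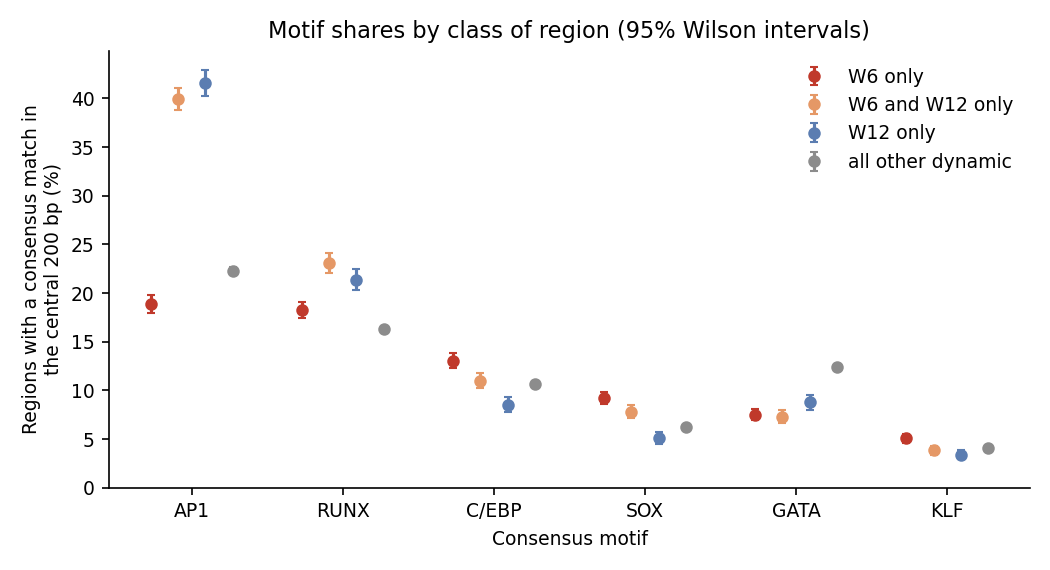
Share (%) of regions with a consensus match in the central 200 bp for 6 motifs, in W6-only, W6-and-W12-only, W12-only and all other dynamic regions, with 95% Wilson intervals for single shares. AP1 stands at 18.9% in W6-only regions against 39.9% and 41.6% in the other late classes, while SOX and C/EBP stand highest in W6-only regions, an order that turned against W6-and-W12-only and other dynamic regions with the full region scanned.

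The position of the matches was then taken from the summit, the base of highest signal in the peak, in bins of 50 bp. Within 50 bp of the summit 6.39% of members held an AP1 match per bin, against 0.842% per bin at 300 to 500 bp, a ratio of 7.6. AP1 was also centred in W6-and-W12-only regions (14.7% against 0.923%, ratio 15.9) and in W12-only regions (15.3% against 0.883%, ratio 17.3). SOX matches were centred in members (2.54% against 1.29%, ratio 1.97) and in W6-and-W12-only regions (2.1% against 1.23%, ratio 1.7), while in W12-only regions the 2 values were 1.25% and 1.12% (ratio 1.12). C/EBP matches behaved likewise, with ratios of 1.52, 1.36 and 1.02. For RUNX the ratios were 1.35, 1.77 and 1.55. GATA matches were less frequent at the summit than beside it in all 3 classes, at 1.93% against 3.07% in members (ratio 0.629). The flanks lie outside most members and give the frequency of the same letters in nearby sequence, and the ratios are descriptions without a test.

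**Figure D3:**
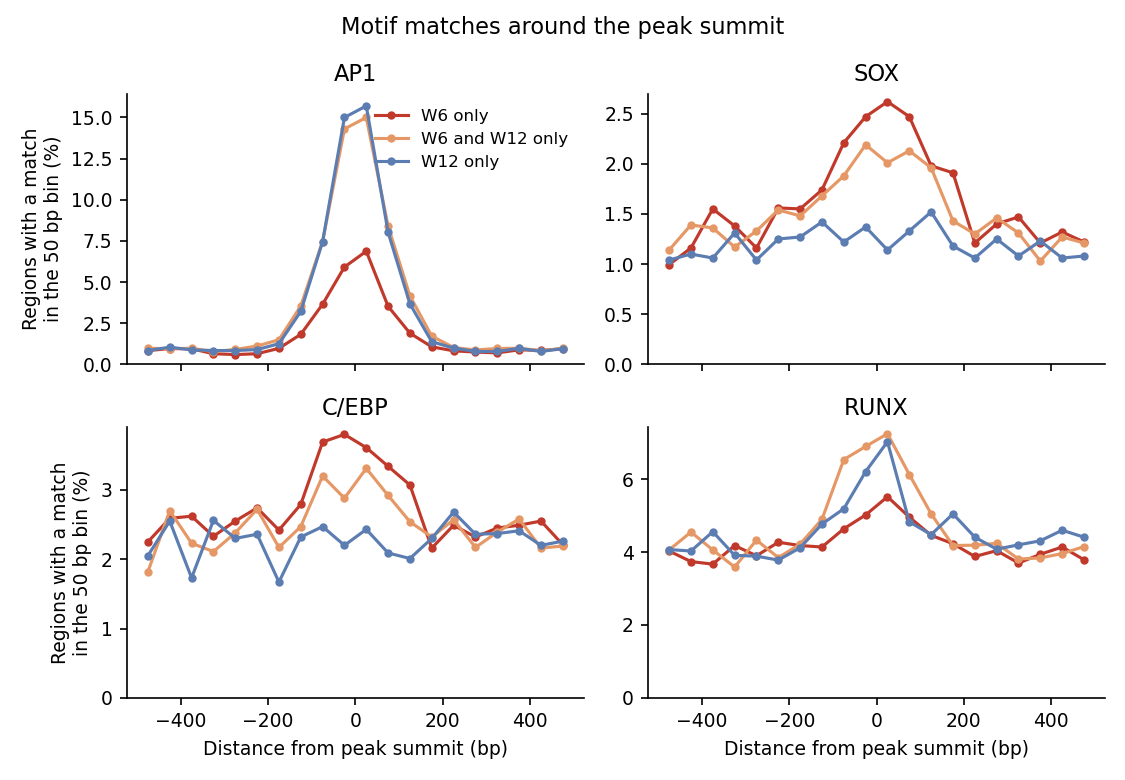
Share (%) of regions with a match to AP1, SOX, C/EBP or RUNX in each 50 bp bin, by distance (bp) from the peak summit, in W6-only, W6-and-W12-only and W12-only regions. AP1 peaks at the summit in every class and lowest in W6-only regions. SOX and C/EBP peak there in W6-only and in W6-and-W12-only regions and are flat in W12-only regions.

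In culture, most members had no counterpart. A peak in at least 1 of the 7 culture lists overlapped 2939 members (36.9%, 35.9 to 38), against 63.9% of W6-and-W12-only, 56.9% of W12-only and 61.8% of all in vivo regions. All 7 lists had a peak at 221 members (2.78%), against 10.3%, 5.58% and 24.3% in the same order. By list, 1186 members (14.9%, 14.1 to 15.7) had a noDOX peak (45.4% of all in vivo regions), 1387 (17.4%, 16.6 to 18.3) a WT-SOX9 peak (42.3% of all), 989 (12.4%) a ΔHMG-SOX9 peak (41.7% of all) and 1208 (15.2%) a ΔTA-SOX9 peak (43% of all). A further 1274 (16%) had an AFOS peak (43% of all), 1369 (17.2%, 16.4 to 18.1) a SOX9+AFOS peak (39.9% of all) and 1212 (15.2%) a SOX9+ARID1a peak (43.1% of all). Static regions make up 37116 of all in vivo regions, so members were also set beside the other late classes. Their noDOX share was lower than in W6-and-W12-only regions (40.3%, log2 odds ratio -1.94, -2.06 to -1.83) and in W12-only regions (33.6%, -1.53, -1.65 to -1.41).

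WT-SOX9 and SOX9+AFOS were the 2 lists in which members appeared most often, and in which they stood closest to the other late classes. Against W12-only regions the log2 odds ratio was -1.99 for ΔTA-SOX9, -1.86 for ΔHMG-SOX9, -1.71 for AFOS and -1.38 for SOX9+ARID1a, but -0.49 (-0.62 to -0.37) for WT-SOX9 (22.9% of W12-only regions). For SOX9+AFOS it was positive, at 0.52 (0.37 to 0.66), with 12.7% of W12-only regions and 17.2% of members. Under the common q minimum this last value was 0.17 (-0.00 to 0.34). Against W6-and-W12-only regions the ratio for SOX9+AFOS was negative (21.7%, -0.42, -0.54 to -0.30), as it was against other dynamic regions (23.9%, -0.60, -0.68 to -0.51). For WT-SOX9 it was -1.36 (-1.47 to -1.24) against W6-and-W12-only regions (35.1%), and for the other 5 lists it lay between -2.16 and -1.86. Fragments are named as input in the peaks of SOX9+ARID1a, AFOS and SOX9+AFOS and in no other list, and the part of this in their values was not tested.

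Regions opened by WT-SOX9 in culture (a WT-SOX9 peak and no noDOX peak) overlapped 705 members (8.86%, 8.26 to 9.51), against 6.45% of all in vivo regions. The share was above that of W12-only regions (6.16%, log2 odds ratio 0.57, 0.37 to 0.76, and 0.56 to 0.86 under all 6 alternatives). Against W6-and-W12-only regions (9.77%) it was -0.16 (-0.32 to 0.01), and it reached 0.29 (0.07 to 0.50) with lists of equal size. Against other dynamic regions (8.43%) it was 0.08 (-0.04 to 0.20). Present in SOX9+AFOS, SOX9+ARID1a and WT-SOX9 but not in noDOX were 176 members (2.21%, 1.91 to 2.56), close to the 2.06% of all in vivo regions. The share was 2.39% of W6-and-W12-only and 1.14% of W12-only regions (-0.11, -0.43 to 0.20, and 0.97, 0.55 to 1.40) and 2.77% of other dynamic regions (-0.33, -0.56 to -0.10). Of the 705 opened members 126 (17.9%, 15.2 to 20.9) held a SOX match and 116 (16.5%, 13.9 to 19.4) an AP1 match. Of the 5010 members with a full window and without any culture peak 8.94% (8.18 to 9.76) held a SOX match. The 691 members with a ΔTA-SOX9 or AFOS peak that was absent in noDOX had SOX in 4.92% (3.54 to 6.8) and AP1 in 31.8% (28.5 to 35.4). AP1 was matched in 26.2% (23.8 to 28.8) of members with a noDOX peak, 16.7% (15.7 to 17.7) of those without a culture peak, and 11.4% (9.82 to 13.2) of those with a SOX9+AFOS peak. A member can be in several of these groups, so their shares are not independent. Motif shares by culture group were not computed for other classes of region, so they are not shown to be particular to members.

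**Figure D4:**
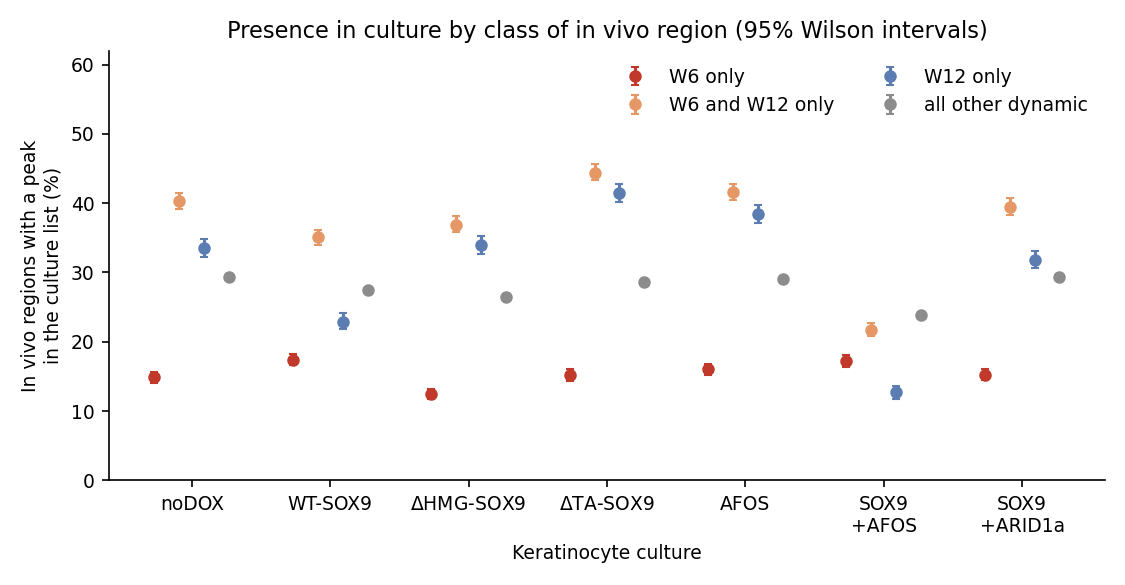
Share (%) of in vivo regions with a peak in each of the 7 culture lists, for W6-only, W6-and-W12-only, W12-only and all other dynamic regions, with 95% Wilson intervals. W6-only regions lie lowest in every list but SOX9+AFOS, where they stand at 17.2% above the 12.7% of W12-only regions.

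The strongest members are listed with their nearest protein-coding gene, which need not be a target. The Msh4 intron region (chr3:153897346-153897889), in a meiotic recombination gene, had a score of 20.1, a fold of 13.8 and a −log10 q of 48.8. It was followed by regions 967717 bp from the start of Cdh20, a cadherin (score 17.7), 512898 bp from Mdfic (17.2) and 530994 bp from Ghitm (16.2). None of these 4, nor the Sgip1 intron region (15.3), the Rab3c intron region (14.9) or the Rpl34 region (14.5), had a peak in any culture list. The Ly6l region scored 15.2 at W6 and 3.79 in noDOX, 3.09 in ΔTA-SOX9 and 5.03 in AFOS. The Pou3f4 region, 590699 bp from the start of this POU factor gene on X, scored 14.8 at W6 and in culture 6.18 in noDOX, 21.1 in WT-SOX9, 4.38 in AFOS and 5.74 in SOX9+ARID1a. The Arnt2 intron region (14 at W6) had its only culture peak in WT-SOX9 (5.27), as did the Slitrk1 region (13.8 at W6 and 4.66 in WT-SOX9).

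Genes with most members in their window (gene body with 10 kb on each side) were long. Fgfr2 had 21 of 248 regions over an annotated body of 2960900 bp and Gm20388 13 of 367 over 4434882 bp, both models that span many other genes. Auts2 had 11 of 86, Ank3 and Psd3 10 each (of 52 and 44), Pde4b, Pde4d, Rbms3 and Tenm4 9 each (of 49, 81, 54 and 66), and Agbl4 8 of 20, a count that 4 other genes also had. In all 4089 of 21924 protein-coding genes had at least 1 member in the window, 346 had at least 3 and 72 at least 5.

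Gene lists of the tissue were then read against the 8.1% of all in vivo regions. The list of stress keratins and alarmins, proteins that injured or inflamed epidermis makes, had the highest share, with 7 of 39 regions (17.9%, 8.98 to 32.7) at 5 of 12 genes. Proteases, matrix and mesenchymal genes had 12 of 120 (10%, 5.81 to 16.7), TGF-β and BMP genes 13 of 142 (9.15%, 5.43 to 15), WNT genes 11 of 146 (7.53%, 4.26 to 13) and hair follicle stem cell genes 11 of 149 (7.38%, 4.17 to 12.7). Lower were AP1 subunits (3 of 54, 5.56%), angiogenesis and hypoxia (2 of 47, 4.26%), RUNX genes (3 of 71, 4.23%) and the NF-κB pathway (3 of 81, 3.7%), all with intervals that held 8.1%. Epidermal identity genes (5 of 153, 3.27%, 1.4 to 7.42), cytokines and chemokines (2 of 91, 2.2%, 0.605 to 7.66) and hedgehog genes (2 of 114, 1.75%, 0.482 to 6.17) had intervals below it, and EGFR ligands and receptors had 2 of 85 (2.35%, 0.648 to 8.18). Of markers of other cells, melanocyte genes had 4 of 26 (15.4%, 6.15 to 33.5), immune genes 3 of 32 (9.38%), fibroblast genes 1 of 13 (7.69%) and endothelial genes 0 of 31, which allows up to 9.68% by a limit of 3 counts and 11% by the Wilson interval, while basal epidermal markers had 4 of 99 (4.04%). No test of the lists was made. Over all lists 87 members lay in a window, and the 7 at stress genes became 1 under 4 of the 5 alternatives, which raise the threshold, and 11 with windows of 50 kb.

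**Figure D5:**
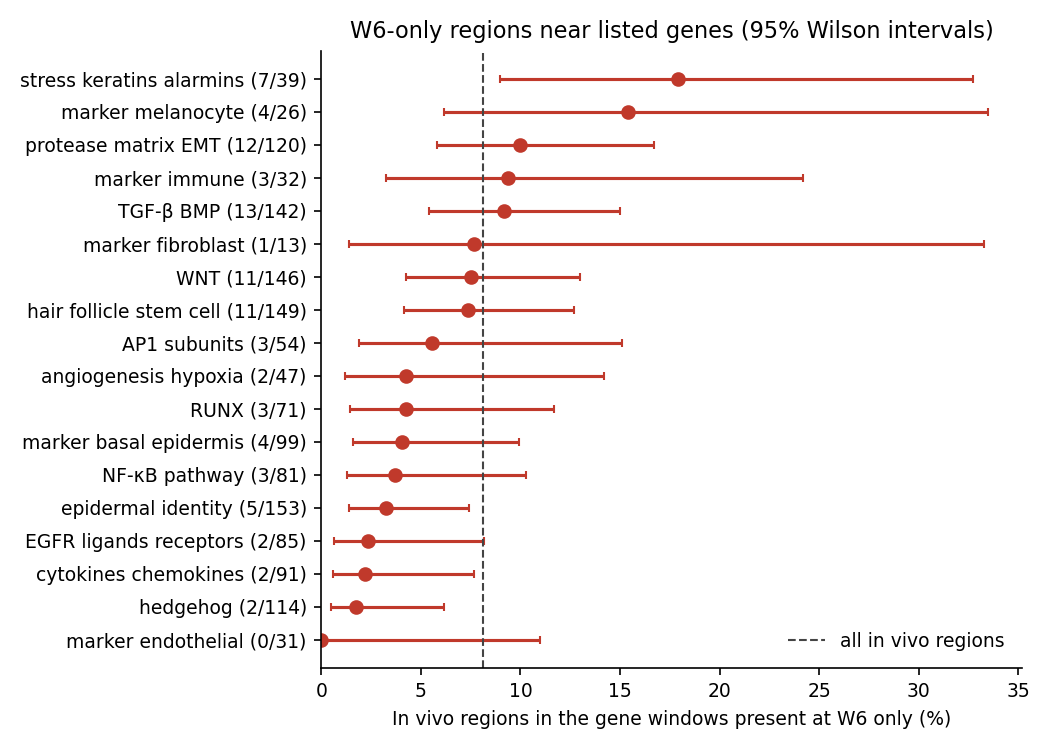
Share (%) of in vivo regions in the windows of each gene list that were W6-only, with 95% Wilson intervals and counts in parentheses. The dashed line is the 8.1% of all in vivo regions, from which stress keratins and alarmins stand above and epidermal identity, cytokine and hedgehog genes below.

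At the Krt6 cluster, whose Krt6a and Krt6b encode keratins of wounded and hyperproliferative epidermis, both in vivo regions in the Krt6b window were W6-only. The one 2615 bp upstream of Krt6b (chr15:101682793-101683011) scored 3.58 at W6 and in culture 3.05 in noDOX, 5.44 in WT-SOX9, 3.73 in SOX9+AFOS and 7.08 in SOX9+ARID1a. The other (chr15:101688229-101688601), between Krt6b and Krt6a, scored 4.4 at W6. It was present in all 7 cultures, with scores of 10.7 in noDOX, 15.5 in WT-SOX9, 14.4 in ΔHMG-SOX9, 3.68 in ΔTA-SOX9, 10.8 in AFOS, 58.2 in SOX9+AFOS and 27.4 in SOX9+ARID1a. Both held RUNX and C/EBP matches. The Krt16 and Krt17 windows, of keratins induced with Krt6a, held no member among 4 and 7 regions.

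Of the other stress genes, S100a9, which encodes a subunit of calprotectin, had a member 6526 bp upstream (chr3:90702052-90702442) with a score of 7.25 at W6 and 4.42 in ΔTA-SOX9. Its other region, at the gene's start, was present at W2, W6 and W12 with scores of 5.85, 16.3 and 4.2. Both regions at Defb3, a β-defensin gene, were W6-only (scores 3.82 and 3.21), the weaker covering the TSS. Lcn2, the gene of an antimicrobial iron-binding protein, had 2 of 4 regions W6-only (4.3 and 3.47), each nearer to the start of another gene. Except at S100a9, these scores were below 5.

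Among TGF-β and BMP genes, Tgfbr2, the type II TGF-β receptor, had the strongest members. Of 15 regions in its window 4 were W6-only, with scores of 9.72 (chr9:116138718-116139268) and 8.92 (chr9:116091065-116091729) in introns, 3.92 beyond the gene's end and 3.26 in an intron, and none had a culture peak. A further 3 regions were at W6 and W12 only, with scores of 8.07, 3.92 and 5.61 at W6. The window held 7 D0, 6 W1, 3 W2, 11 W6 and 8 W12 regions. Of the SMAD mediators, Smad3 had 2 members (6.69 and 4.38) and Smad2 an intron member (6.46) with peaks in all 7 cultures, from 6.03 in SOX9+AFOS to 26.9 in WT-SOX9. The remaining members were at Tgfb2 (4.4), Smad6 (3.9), Bmp6 (3.26), Id1 (3.61), Inhba (3.26) and Fst (3.92).

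Among genes of matrix and mesenchymal state, Vim, the mesenchymal intermediate filament, had a member in an intron, 1923 bp from a TSS (chr2:13576030-13576378), with a score of 7.91 at W6. In culture it was absent in noDOX, ΔHMG-SOX9, ΔTA-SOX9 and AFOS, and present in WT-SOX9 (13.9), SOX9+ARID1a (10.8) and SOX9+AFOS (12). The neighbouring Vim intron region, present in all 5 in vivo lists, had the same WT-SOX9 score. The single region in the window of Twist1, an EMT transcription factor, was W6-only (4.85, in its coding exon), with scores of 3.07 in noDOX and 3.21 in WT-SOX9. Plau, the urokinase gene, had a member 7652 bp upstream with RUNX, SOX and GATA matches (6.22 at W6, 5.27 in noDOX, 5.24 in WT-SOX9, 4.75 in AFOS and 4.06 in SOX9+AFOS). Lamb3, which encodes a subunit of laminin-332, had 4 of 17 regions (scores from 3.26 to 6), although only 1 of the 4 had its nearest TSS there. The integrins Itga5 and Itgav had 1 (3.77) and 2 (3.97 and 4.4).

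Hair follicle and WNT genes gave members of moderate score. Nfib, a factor of follicle stem cells, had 5 of 54 regions, with scores of 6.51, 5.83, 5.22, 3.58 and 3.22. Barx2 had 3 of 24 (4.14, 4.04 and 3.5). Single members were found at Cd34 (5.51), a surface marker of follicle stem cells that the sort had used to leave cells out, at Foxc1 (3.92) and at Vdr (4.86). The Vdr region, with RUNX and SOX matches, was present in SOX9+AFOS (12.5), WT-SOX9 (12.1) and SOX9+ARID1a (8.55) and in none of the other cultures. The Sox9, Lhx2, Nfatc1 and Tbx1 windows held none. Of the WNT transcription factors, Tcf7l2 had 3 of 25 regions (8.55, 4.26 and 3.08), the strongest with a SOX9+AFOS peak of 6.95, and Tcf7l1 had 3 of 21 (5.82, 3.89 and 3.5). Lgr5, a receptor that marks follicle stem cells, had a member in an intron (7.07), nearer to the start of another gene, in a window with no D0 or W1 region, 3 W2, 7 W6 and 9 W12 regions. Lef1 (3.99), Axin2 (3.26), Wnt7b (3.8) and Wnt4 (3.03) had 1 each.

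Other transcription factor and signalling genes had few members. Fos had a member 4995 bp upstream with a score of 6.66, Batf an intron member (5.85) and Fosl2 a member 638 bp from its TSS (3.45) that overlapped culture peaks of 58.6 in noDOX, 47.5 in WT-SOX9 and 36.8 in ΔTA-SOX9. Runx1 had 1 of 29 regions (3.91), with culture scores of 6.74 in noDOX, 37.1 in WT-SOX9, 3.87 in ΔHMG-SOX9, 3.81 in SOX9+AFOS and 11.2 in SOX9+ARID1a. Runx2 had 2 (3.85 and 3.78). Nfkbiz, an atypical IκB, had a member in a coding exon (6.37) and culture peaks of 4.84 in noDOX, 13.8 in SOX9+AFOS and 6.62 in SOX9+ARID1a, and Tnfaip2 (3.16) and Traf1 (3.58) had 1 each. In the hedgehog list, Shh (3.92) and Ptch1 (3.26) had 1 each and Gli1, Gli2 and Smo had none. Il20 (4.6), Cxcl3 (3.57), Egfr (3.47), Tgfa (3.72), Pdgfb (3.59) and Slc2a1 (4.63) completed these lists. Of the epidermal genes, Gata3 (3.93, at the start of the neighbouring gene 4930412O13Rik), Grhl2 (4.75), Krt10 (3.37), Trp63 (3.12) and Klf5 (3.08) had 1 each. Krt5, the basal keratin gene, had 1 of 12 regions W6-only (4.09), which scored 19.2 in WT-SOX9, 30.7 in SOX9+AFOS and 21.4 in SOX9+ARID1a and was absent from the other cultures.

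Markers of cells that the sort should leave out had members at Ptprc (4.96) and Spi1 (4.26 and 3.26) among immune genes, at Mitf (3.92), Dct (3.92 and 3.47) and Pmel (3.58) among melanocyte genes, and at Col1a1 (3.25) among fibroblast genes. The members in the Spi1 and Col1a1 windows were each nearer to the start of another gene. In regions per list, immune windows held 20 D0, 20 W1, 19 W2, 27 W6 and 25 W12 regions, and melanocyte windows 13, 12, 17, 22 and 18. In the same order endothelial windows held 21, 15, 24, 24 and 27 and fibroblast windows 7, 6, 7, 8 and 8. The lists as a whole held 55667, 57321, 60793, 73578 and 69650 regions, with most at W6, as in the immune and melanocyte windows. The part of such cells in the W6-only regions was not tested.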

How the data were processed

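ATAC-seq was analysed from 12 peak lists, 5 in vivo and 7 from culture. The authors used the PEPATAC pipeline on GRCm38/mm10, merged the 2 replicates of a group and called peaks with MACS2, keeping duplicates. The submitters' processing notes name Bowtie2 2.2.9, Picard 2.3.0, SAMtools 1.9, MACS2 2.1.1 and deepTools 2.5.4. The authors' normalized peak score was kept at 3 or above, and its scaling to a common total per list is inferred from the list totals. The deposited in vivo lists also gave the fold enrichment (a ratio over local background), −log10 q-values and the summit offset (other) of each peak. Read depth is unknown, and intervals cover counting error only.

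Peaks were merged at 1 bp of overlap and classed by presence with Python 3.11.15, numpy 2.4.6 and pandas 2.3.3, after the functions had been tested on simulated data. Windows of 200 bp at region centres were scanned on GRCm38.p6 for consensus motifs. Genes and TSSs were the protein-coding ones of GENCODE M21, and gene windows added 10 kb on each side. Shares carry Wilson intervals and differences are log2 odds ratios with 95% intervals, Bonferroni-widened over 51 motif comparisons. No p-value was computed, as the replicates had been merged before peak calling. Where noted, odds ratios were pooled by the Mantel-Haenszel method over 5 GC or 10 score strata. The members, motifs and gene lists were chosen with earlier results of these data known. Named were the 12 members with the highest W6 scores, the 10 genes with most members, and the members at listed genes, except some items not reported here. The list genes Il36a and Il36g were not matched by name.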

Additional observations from a re-analysis of the deposited data

How the results depend on the processing

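Of 337 values recomputed under the alternatives, 246 kept their direction and their side of the threshold or stayed close to the first value. All 8 alternatives kept the lower AP1 share against both other late classes, the higher SOX and C/EBP shares against W12-only regions and the lower RUNX share against W6-and-W12-only regions. Ratios below are log2 odds ratios of W6-only regions over the class named, and the cause of a change was not tested unless stated.

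With a score of at least 5 in every list there were 5133 W6-only regions (9.46% of W6 regions), 1 of them at stress genes. AP1 (-0.06) and, against W12-only regions, RUNX (-0.23) had intervals with 0, the former against other dynamic regions. GATA against W12-only regions turned to 0.01, opening by WT-SOX9 against W6-and-W12-only regions to 0.07 and TEAD against the same class to -0.19, while SOX there reached 0.39 with an interval without 0. With a score of at least 5 asked at W6 alone, 1825 were left (2.48%), 18 in gene windows and 1 at stress genes. AP1 (-0.20) and RUNX (0.24) against other dynamic regions and RUNX (-0.24) against W12-only regions had intervals with 0. CTCF turned to -0.71, -0.86 and -1.31 against W6-and-W12-only, W12-only and other dynamic regions, opening by WT-SOX9 to 0.14, and SOX reached 0.66.

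With the common −log10 q minimum (14.5) there were 2063 (4.55%), 20 in gene windows and 1 at stress genes. The TSS difference from W12-only regions (0.36), SOX9+AFOS against W12-only regions (0.17), and AP1 (-0.20) and RUNX (0.19) against other dynamic regions had intervals with 0. Signs turned for GATA (0.19), CTCF (-0.96) and TEAD (0.17) against W12-only regions, CTCF against other dynamic regions (-1.30), and TEAD (-0.07) and opening by WT-SOX9 (0.16) against W6-and-W12-only regions. With lists of equal size there were 3876 (6.91%), 41 in gene windows and 1 at stress genes. RUNX against W12-only regions (-0.24) had an interval with 0. Signs turned for AP1 (0.24) and CTCF (-0.48) against other dynamic regions, TEAD against W6-and-W12-only (-0.28) and W12-only regions (0.10), and opening by WT-SOX9 against W6-and-W12-only regions (0.29). Sharing that required 50% of the W6 peak to be covered gave 8576, and leaving out members within 500 bp of another list's peak gave 6957. These are 11.3% and 9.16% of the 75956 W6 peaks, a base other than the W6 regions used above.

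Scanning the full region, which lengthens the wider classes most, turned GATA (-0.63), SOX (-0.30), C/EBP (-0.33), KLF (-0.02), TEAD (-0.50) and the E-box (-0.30) against W6-and-W12-only regions, and RUNX (-0.51), SOX (-0.04), C/EBP (-0.36), KLF (-0.17), CTCF (-0.04) and the E-box (-0.60) against other dynamic regions. It made GATA against W12-only regions -0.37 with an interval without 0. Pooling over GC content gave SOX 0.36 against W6-and-W12-only regions and TEAD 0.01 against W12-only regions, and pooling over the W6 score gave SOX 0.56 and TEAD -0.03 against the former. Scanning around the summit, chosen after seeing the data, gave TEAD -0.00 against that class and the E-box -0.04 against other dynamic regions. A culture peak covering 50% of the region made opening by WT-SOX9 -0.24, a TSS distance of 5 kb gave 0.10 against W12-only regions, and windows of 50 kb held 177 members, 11 at stress genes.

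Replicates could not be left out, since the deposited lists hold merged replicates. No paired analysis was possible because each group has a single list. Most members lie near the score minimum and read depth is unknown, so absence from the other lists is not shown to be closed chromatin.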
